A study of Homo sapiens with 4 samples.

Results

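The E2F transcription factors and the E cyclins were described in A549, an established cell line from a human lung adenocarcinoma, after knockdown of the homeobox gene *DLX6*. The 10 genes, *E2F1* to *E2F8*, *CCNE1* and *CCNE2*, were taken by symbol from the 51136 rows of the deposited table, and all 10 passed the filter on low values (at least 1 FPKM in at least 2 libraries), as did 15504 rows in all. FPKM is reads per gene length and per library total, so levels of different genes can be compared on it. RNA-seq was made from 2 libraries of cells transfected with si-DLX6 RNA (genotype label DLX6 knockdown) and 2 libraries of cells transfected with si-control RNA (genotype label WT), all grown in DMEM with 10% serum. The labels also give an adipogenic treatment to every sample of both groups, although neither titles nor protocols mention one. The siRNA sequences, dose and time after transfection were not stated in the labels. Nor do the labels state separate cultures for the 2 libraries of a group or, for si-DLX6, a common siRNA. The column names of the si-DLX6 libraries hold SEQ1 and SEQ2, and whether these mean different siRNA sequences is not stated. A limma p-value below thus reflects the spread between 2 libraries a group, drawn toward the trend of that spread over all tested rows. This spread may be technical or, with si-DLX6, lie between siRNAs, which cannot be told apart here.

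E2F factors bind DNA at the promoters of genes needed to enter S phase. The first 3, *E2F1*, *E2F2* and *E2F3*, are activators that bind DNA with a DP partner and are held inactive by the retinoblastoma protein. *E2F4* and *E2F5* mostly act as repressors with pocket proteins in resting and early G1 cells, *E2F6* represses without pocket proteins as part of a polycomb complex, and *E2F7* and *E2F8* are atypical repressors that bind DNA without a DP partner and restrain the activators late in S phase. Cyclin E, made from *CCNE1* or *CCNE2*, activates the kinase CDK2, which phosphorylates the retinoblastoma protein and so frees more E2F; both cyclin genes are themselves E2F targets.

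The libraries held 10485013 and 10665357 reads for si-DLX6, against 12075285 and 9678221 reads for si-control, as recovered from the deposited values. *DLX6* itself was at 0.916 and 0.450 FPKM in the si-DLX6 libraries, against 3.27 and 3.47 FPKM in the si-control libraries, so the levels went with the labels. These levels rest on 18 and 9 reads with si-DLX6 and 74 and 63 with si-control. The change was −1.39 on the log2 scale (limma adjusted p = 0.00859, or 0.0667 with no filter). *DLX6* passed the filter on low values only through the si-control libraries, so its adjusted p is no further support for the labels. Its reads cannot be told from those of the antisense gene *DLX6-AS1*, since strand use in the counting is not given. Of 5 epithelial markers, the keratins *KRT8* (111 and 100.1 FPKM with si-DLX6, 138 and 123 with si-control) and *KRT18* (464 and 422, against 475 and 447) were high, while *EPCAM*, *CDH1* and *KRT19* stayed under 0.5 FPKM in every library. So 3 of the 5 markers of the labelled epithelial origin were at or near 0 in both groups, and whether the cells are A549 was not tested beyond these markers. Markers of adipocytes (7 genes, 3 at 0 in all libraries) summed to 2.06 and 2.13 FPKM with si-DLX6 and 1.153 and 1.57 with si-control, nearly all from *PPARG*; *ADIPOQ*, *LEP* and *LPL* were at 0. Markers of leukocytes (5 genes), fibroblasts (6) and endothelium (4) each summed to under 1 FPKM in every library, with *PTPRC*, *CD3E*, *LYZ*, *LUM* and *CDH5* at 0.

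Promoters of the activators and of *E2F4*, the most abundant member, are shown because *E2F1* and *E2F2* are textbook targets of E2F itself, so that their own promoters can carry the E2F word. Each line gives the 100 bases before the RefSeq start (GRCh38.p14), 5′ to 3′ on the gene's strand; capitals mark a match on either strand to TTTCCCGC, TTTGGCGC, TTTCGCGC or TTTGCCGC.
E2F1, chr20:33686386-33686485, minus strand: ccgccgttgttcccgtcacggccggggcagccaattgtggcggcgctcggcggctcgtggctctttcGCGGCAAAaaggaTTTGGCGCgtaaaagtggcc
E2F2, chr1:23531234-23531333, minus strand: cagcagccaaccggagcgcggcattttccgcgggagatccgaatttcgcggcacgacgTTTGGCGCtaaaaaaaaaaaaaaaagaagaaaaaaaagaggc
E2F3, chr6:20401779-20401878, plus strand: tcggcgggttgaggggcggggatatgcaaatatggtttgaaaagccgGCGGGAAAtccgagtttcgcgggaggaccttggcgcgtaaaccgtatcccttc
E2F4, chr16:67192055-67192154, plus strand: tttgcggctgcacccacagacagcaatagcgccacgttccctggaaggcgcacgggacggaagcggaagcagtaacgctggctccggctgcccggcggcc
The *E2F1* matches begin 33 and 20 bases before the start and do not overlap each other, the *E2F2* match begins 42 bases before it, and the *E2F3* match 53 bases before the first of 2 starts.

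Over windows of 300 bases (250 before the start and 50 after it), 7 members were searched. *E2F5* and *CCNE2*, on chromosome 8, were left out of the search, and no window was at hand for *E2F8*. A match was held by 3 of them, *E2F1*, *E2F2* and *E2F3*, and by none of *E2F4*, *E2F6*, *E2F7* and *CCNE1*. The share of all 35116 RefSeq windows with a match was 3.31%, and of 26 G1/S genes known as E2F targets that had a window, 15 had a match. Chromosome 8 was kept in both of these counts, unlike in the count of members. A match is a run of letters and not a measured site, and these 4 words do not cover every sequence that E2F can bind.

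With si-DLX6, 3 of the 10 genes fell, *E2F2*, *E2F4* and *E2F8*, and 0 rose (adjusted p under 0.05, limma, Benjamini-Hochberg). At an unadjusted p under 0.05 these were joined by *CCNE1*, with 0 genes higher, and limma-voom on recovered reads also called 3 lower and 0 higher. Over all 15504 rows tested, 9.49% fell and 10.2% rose, 19.6% in all. The genes that fell belong to 3 different classes, an activator, a pocket-protein partner and an atypical repressor, and in each case another gene of the class did not pass the test. The median log2 fold change of the 10 was −0.22, against 0.05 over all rows. In 6 of the 10 the libraries of the groups did not overlap, all 6 lower with si-DLX6; over all rows the groups did not overlap in 63.0%, and with si-DLX6 the lower in 27.9%. Bulk RNA cannot tell fewer cells of one cell cycle phase from less RNA of a gene in each cell.

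**Figure D1:**
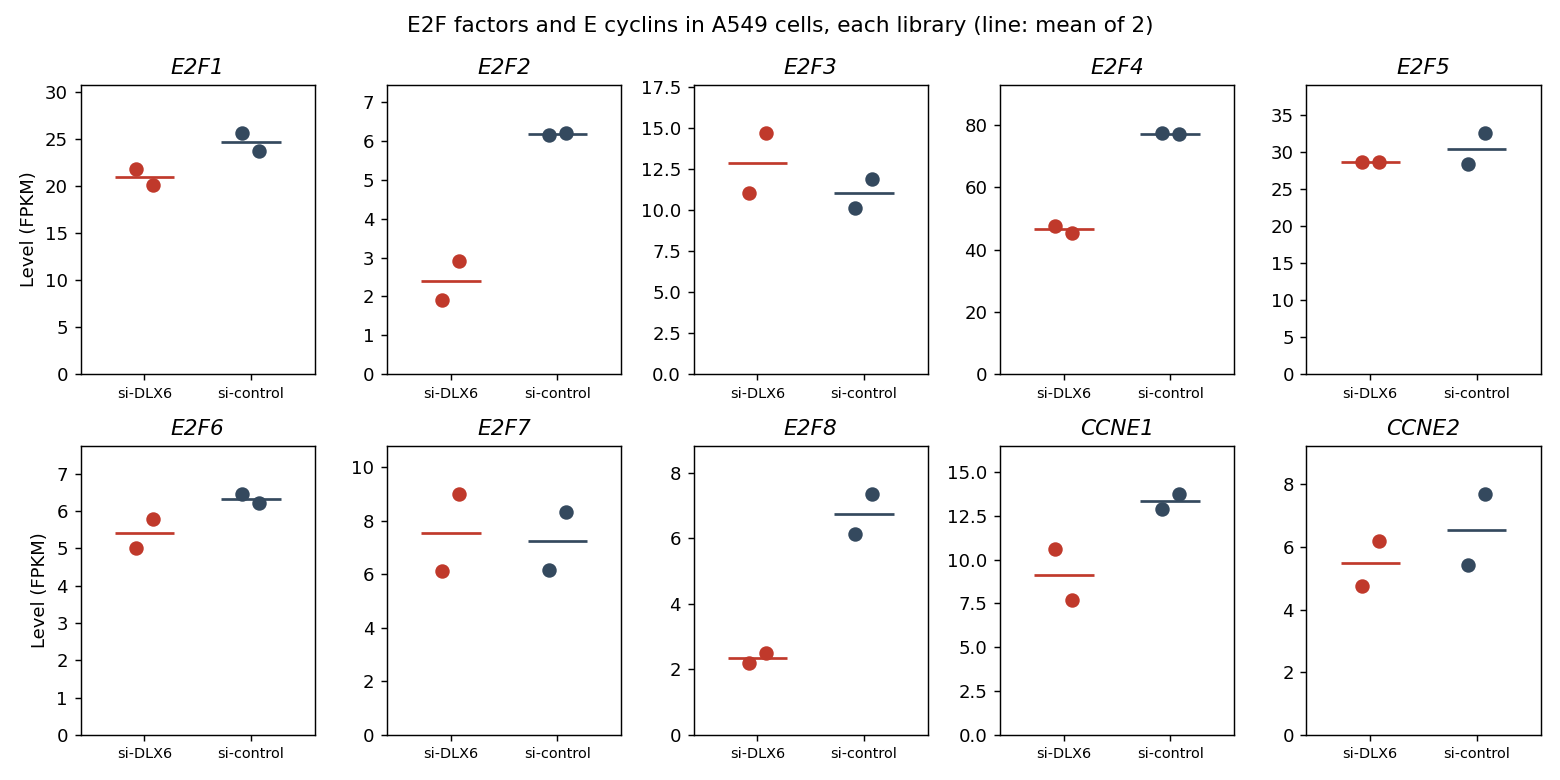
Level of each gene in FPKM (vertical axes, each from 0) in the si-DLX6 libraries (left, red) and the si-control libraries (right, dark); points are libraries and lines the mean of 2. *E2F2*, *E2F4* and *E2F8* show the widest gaps between groups, while the groups of *E2F3*, *E2F5*, *E2F7* and *CCNE2* overlap.

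Among the activators, *E2F2* fell to 1.91 and 2.91 FPKM in the si-DLX6 libraries, against 6.17 and 6.21 FPKM in the si-control libraries. The si-control libraries lay within 0.1 FPKM of each other and the si-DLX6 libraries far below them, library 1 the lower. The means were 2.41 ± 0.705 and 6.19 ± 0.0257 FPKM (SD, n = 2 each), for a log2 fold change of −1.09 with an SE of 0.19 (limma adjusted p = 0.0140, Benjamini-Hochberg). The reads behind these values were 104 and 161 with si-DLX6 and 387 and 312 with si-control, which per library total is 39.0% of si-control (95% exact interval 33.7% to 45.0%, counting error only). Because 1 is added before the logarithm, the fitted change of a gene this low is understated; limma-voom on recovered reads gave −1.39. Its call was lost in 1 of 11 alternatives, when low rows were not filtered out (adjusted p = 0.0792, limma). Only 1.45% of tested rows had a lower fold change. *E2F2* spans 23506430 to 23531220 of chromosome 1, minus strand (GENCODE release 29, GRCh38), and no other annotated gene overlaps it.

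*E2F1*, the best known activator, was at 21.8 and 20.1 FPKM with si-DLX6 and at 25.6 and 23.8 FPKM with si-control. The groups did not overlap, yet the gene did not pass (log2 fold change −0.23, 95% interval −0.49 to 0.04, adjusted p = 0.189, limma, Benjamini-Hochberg). *E2F3* was at 11.0 and 14.7 FPKM with si-DLX6 and 10.2 and 11.9 FPKM with si-control, and the groups overlapped (0.20, interval −0.20 to 0.60, adjusted p = 0.442). Of the 3 activators only *E2F2* passed, and its 95% interval (−1.55 to −0.64, limma) lay below those of *E2F1* and *E2F3*. Within a library *E2F1* was 11.4 and 6.93 times *E2F2* with si-DLX6, against 4.15 and 3.83 times with si-control. That ratio rests on the same values and is no further evidence. An exact two-sided permutation test of that ratio over the 4 libraries gave p = 0.333, the smallest that 2 against 2 allows. The near-copies *E2F3P1* and *E2F3P2* held at most 18 reads in a library, few beside the 576 to 785 of *E2F3*.

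*E2F4*, a repressor with pocket proteins, was the most abundant of the 10 in every library. It fell to 47.7 and 45.4 FPKM in the si-DLX6 libraries, against 77.4 and 77.0 FPKM in the si-control libraries. Libraries of a group were close together and the groups far apart, with means of 46.6 ± 1.64 and 77.2 ± 0.290 FPKM (SD, n = 2 each). On the log2 scale the change was −0.72 with an SE of 0.09 (limma adjusted p = 0.00701). *E2F4* had the deepest coverage of the members, 1051 and 1017 reads with si-DLX6 and 1963 and 1565 with si-control, or 60.3% of si-control (95% exact interval 57.1% to 63.7%). Its call held in all 11 alternatives, with adjusted p from 0.00173 to 0.0496 (limma). The gene spans 67192169 to 67198918 on the plus strand of chromosome 16, with no annotated gene across it, and its near-copy *E2F4P1* held 1 read in each si-DLX6 library and 0 in the si-control libraries.

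*E2F5*, its closest relative by role, did not follow. It was at 28.7 and 28.6 FPKM with si-DLX6 and at 28.3 and 32.5 FPKM with si-control, overlapping groups (−0.08, interval −0.35 to 0.18, adjusted p = 0.646, limma, Benjamini-Hochberg). In the si-DLX6 libraries *E2F4* was 1.67 and 1.59 times *E2F5*, against 2.73 and 2.37 times in the si-control libraries (exact two-sided permutation p = 0.333, the smallest possible). *E2F5* overlaps *C8orf59* (up to 40.2 FPKM in a library) on the other strand, so some of its reads may belong to that gene.

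*E2F6*, the polycomb-linked repressor, was at 5.00 and 5.79 FPKM with si-DLX6 and 6.46 and 6.20 FPKM with si-control. The groups did not overlap, yet the gene did not pass (−0.20, interval −0.55 to 0.15, adjusted p = 0.370, limma, Benjamini-Hochberg). Its copies *E2F6P1*, *E2F6P2* and *E2F6P3* held up to 17 reads in a library, where *E2F6* had 181 to 269, so its level carries a small uncertainty from shared sequence.

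Of the atypical repressors, *E2F8* showed the largest fitted fall of the 10. Its 95% interval (−1.60 to −0.81, limma) overlapped that of *E2F2* (−1.55 to −0.64), and their order was not tested. *E2F8* was at 2.20 and 2.49 FPKM in the si-DLX6 libraries, against 6.12 and 7.36 FPKM in the si-control libraries. The highest si-DLX6 library was well under the lowest si-control library, and the means were 2.35 ± 0.205 and 6.74 ± 0.876 FPKM (SD, n = 2 each). On the log2 scale the change was −1.21 with an SE of 0.16 (limma adjusted p = 0.00763), or −1.50 by limma-voom on recovered reads. Here too the call was lost in 1 of 11 alternatives, with no filter on low values (adjusted p = 0.0560, limma). It rested on 86 and 99 reads with si-DLX6 and 275 and 265 with si-control, 35.2% of si-control (95% exact interval 29.7% to 41.7%), and 1.02% of tested rows had a lower fold change. *E2F8* spans 19224063 to 19241620 of chromosome 11, minus strand, with the antisense gene *AC009652.2* across it, whose reads cannot be told apart without strand.

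*E2F7*, the other atypical member, was at 6.11 and 8.999 FPKM with si-DLX6 and 6.16 and 8.31 FPKM with si-control. The spread inside each group was larger than the gap between them (0.05, interval −0.47 to 0.56, adjusted p = 0.900, limma, Benjamini-Hochberg), and the sign turned to −0.04 under median-of-ratios scaling. *E2F7* and *E2F8* stood near equal with si-control, at ratios of 1.006 and 1.13, while with si-DLX6 *E2F7* was 2.77 and 3.61 times *E2F8*. The ratio was thus higher in both si-DLX6 libraries than in both si-control libraries (exact two-sided permutation p = 0.333, the smallest possible).

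Summed over the 8 E2F genes, the level was 124 and 129 FPKM with si-DLX6 and 166 and 173 FPKM with si-control. *E2F4* made up 38.4% and 35.2% of that sum with si-DLX6, against 46.5% and 44.4% with si-control. The order *E2F4*, *E2F5*, *E2F1* at the top was the same in all 4 libraries, with no overlap between these neighbours within a group. The place of *E2F5* and its part of the sum may include reads of *C8orf59*, since strand use is not given. *E2F3* came next in both si-DLX6 libraries, followed by *CCNE1* in library 1 and by *E2F7* in library 2, while *CCNE1* and then *E2F3* came next in both si-control libraries. With si-control, *E2F7*, *E2F8*, *CCNE2*, *E2F6* and *E2F2* followed at means of 7.24, 6.74, 6.55, 6.33 and 6.19 FPKM, close together beside the spread of 0.876 to 1.61 FPKM (SD) in *E2F7*, *E2F8* and *CCNE2*. With si-DLX6, *E2F2* and *E2F8* had dropped below the rest, at means of 2.41 and 2.35 FPKM that do not differ beyond their spread.

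**Figure D2:**
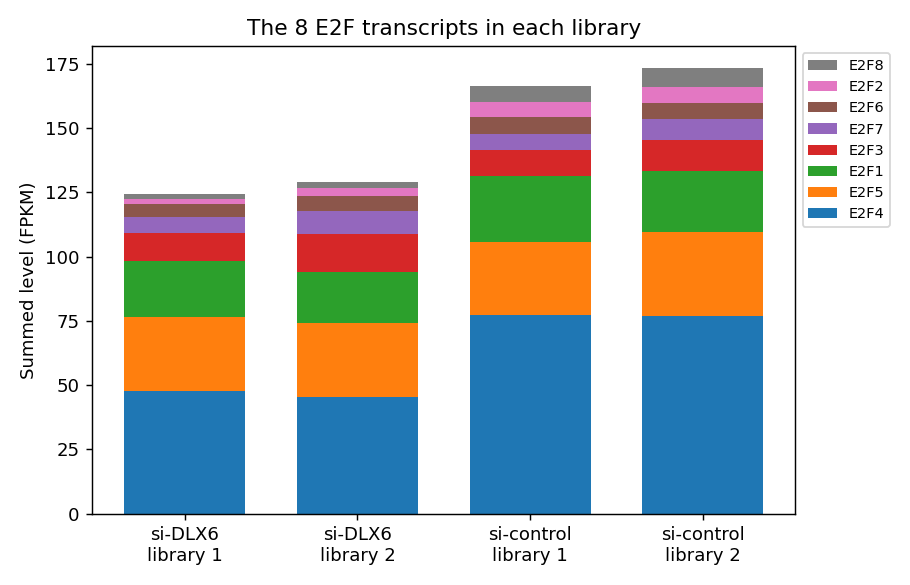
Summed FPKM (vertical axis) of the 8 E2F transcripts in each library, si-DLX6 on the left and si-control on the right, with 1 colour per gene. The si-DLX6 sums are 124 and 129 FPKM and the si-control sums 166 and 173 FPKM, and most of the gap lies in the *E2F4* block at the base.

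The E cyclins did not pass the test. *CCNE1* was at 10.6 and 7.71 FPKM in the si-DLX6 libraries and 12.9 and 13.7 FPKM in the si-control libraries, with si-DLX6 library 2 the lowest and no overlap. The log2 fold change was −0.51 (SE 0.16, interval −0.91 to −0.12, unadjusted p = 0.0190, adjusted p = 0.0753, limma, Benjamini-Hochberg). Its reads, 216 and 160 with si-DLX6 and 303 and 259 with si-control, came to 68.8% of si-control (95% exact interval 60.2% to 78.6%, counting error only). The gene is near the threshold, and its side of it depends on the libraries fitted: without si-DLX6 library 1 the fold change was −0.72 and the adjusted p 0.0428, without si-DLX6 library 2 they were −0.31 and 0.292. *CCNE1* spans 29811898 to 29824308 of chromosome 19, plus strand.

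*CCNE2* was at 4.76 and 6.19 FPKM with si-DLX6 and 5.41 and 7.69 FPKM with si-control, overlapping groups in which library 2 was the higher each time (−0.21, interval −0.70 to 0.27, adjusted p = 0.494, limma, Benjamini-Hochberg). The recovered reads, 71 and 94 against 93 and 106, are lower limits. They go with a length of 1424 bases, so a shared factor may have been lost. *INTS8* and *NDUFAF6* overlap it on the other strand. Within a library *CCNE1* was 2.23 and 1.24 times *CCNE2* with si-DLX6 and 2.38 and 1.79 times with si-control, with overlap between the groups.

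**Figure D3:**
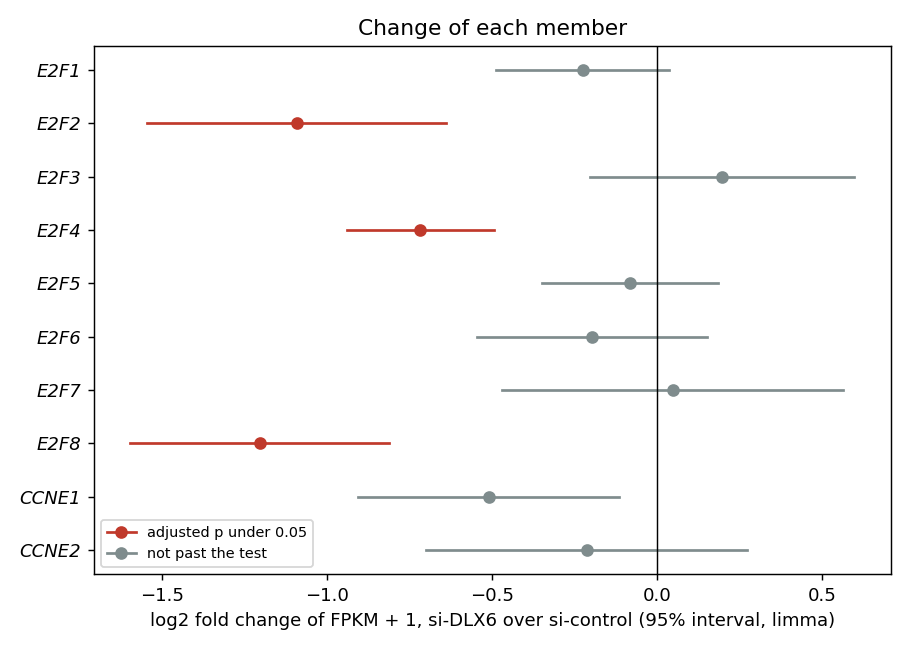
Log2 fold change of FPKM + 1, si-DLX6 over si-control (horizontal axis), with limma's 95% interval, for each gene; red marks an adjusted p under 0.05. *E2F2* (−1.09), *E2F4* (−0.72) and *E2F8* (−1.21) pass, and the intervals of the other genes except *CCNE1* include 0.

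The rows with profiles nearest to *E2F1* in log2(FPKM + 1), centred on the mean of the 4 libraries, were *MAN1B1*, *PSMA7* and *RPLP0P6*, at Euclidean distances of 0.0199, 0.0240 and 0.0246 among 6278 rows of at least 10 FPKM. For *CCNE2* they were *DUSP11* (0.0648), *POLR2B* (0.0755) and *MATR3* (0.0785). Of these rows, 157 were within 0.1 of *E2F1* and 8 within 0.1 of *CCNE2*.

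In 3 lists, the DP partners, the pocket proteins and the MuvB core with *MYBL2* (described last), 0 of 11 tested genes passed with limma. Of all rows 19.6% did, so the count is too small to set these genes apart from other rows. At an unadjusted p under 0.05 there was 1 lower (*RBL1*) and 1 higher (*RBL2*), and limma-voom on recovered reads called 1 lower (*RBL1*). Neither tested DP partner passed, *TFDP1* at 33.3 and 36.9 FPKM with si-DLX6 and 32.7 and 38.1 FPKM with si-control (−0.01), and *TFDP2* at 5.92 and 6.38 FPKM against 5.19 and 4.81 FPKM (0.25); *TFDP3* was below the filter. Of the 3 pocket protein genes 0 passed. *RB1*, the retinoblastoma gene, was at 0.21 (adjusted p = 0.479, limma, Benjamini-Hochberg). *RBL2*, the main partner of *E2F4* in resting cells, was at 11.8 and 14.5 FPKM with si-DLX6 and 8.59 and 10.6 FPKM with si-control (0.42, adjusted p = 0.111, limma). *RBL1*, which is itself an E2F target, was at 2.21 and 2.59 FPKM with si-DLX6 and 3.47 and 4.49 FPKM with si-control (−0.54, adjusted p = 0.0793, limma). The groups of *RBL1* and *RBL2* did not overlap and lay in opposite directions. Of the 6 genes of the MuvB core and *MYBL2*, which join pocket proteins and E2F in the DREAM complex or take their place later in the cycle, 0 passed, and their median was 0.05.

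Around CDK2, the kinase that cyclin E activates, 4 of 12 tested genes fell and 0 rose, against 9.49% and 10.2% of all rows, with a median log2 fold change of −0.31. The A cyclins, which follow cyclin E on CDK2, both fell. *CCNA2* was at 17.7 and 20.4 FPKM with si-DLX6, against 34.3 and 42.1 FPKM with si-control (−0.96, adjusted p = 0.00857, limma, Benjamini-Hochberg), and *CCNA1*, mainly known from germ cells, at 1.96 and 2.30 FPKM against 6.35 and 6.27 FPKM (−1.23, adjusted p = 0.00638, limma). The CDK-activating kinase *CDK7* (−0.65) and the CDK-binding subunit *CKS2* (−0.46) fell as well. *CDK2* itself was at 46.6 and 39.7 FPKM with si-DLX6 and 53.9 and 54.3 FPKM with si-control (−0.32, adjusted p = 0.0891, limma). The count was 2 without si-DLX6 library 2, 2 without si-control library 2 and 0 with no filter. A rise was found in 0 genes by limma-voom and in 1 at an unadjusted p under 0.05, the CDK inhibitor *CDKN1B* (0.38).

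A list of 9 genes held those of ubiquitin ligases that degrade cyclin E or E2F factors, and also *USP28*, a deubiquitinase and not part of a ligase. In this list 3 fell and 0 rose (median −0.26), where 9.49% of all rows fell and 10.2% rose. Cyclin F, *CCNF*, was at 7.21 and 7.52 FPKM with si-DLX6 and 15.5 and 14.9 FPKM with si-control (−0.95, adjusted p = 0.00628, limma, Benjamini-Hochberg). The ring subunit *RBX1* (−0.42) and the deubiquitinase *USP28* (−0.55) fell, and the count was 1 whichever library was left out, and 1 with no filter. By limma-voom 0 rose, and at an unadjusted p under 0.05 the scaffold *CUL1* (0.23) was higher. Of 12 genes of the polycomb complex that holds *E2F6*, 4 fell and 1 rose, against 9.49% and 10.2% of all rows. Those that fell were *CBX3* (−0.51), *WDR5* (−0.50), *MAX* (−0.47) and *HDAC1* (−0.39). At an unadjusted p under 0.05, and also by limma-voom, 5 were lower and 1 higher. The gene added was *PCGF6* (−0.50, adjusted p = 0.0520, limma). The ubiquitin ligase *RING1* rose, at 46.2 and 40.1 FPKM with si-DLX6 against 27.7 and 25.0 FPKM with si-control (0.69, adjusted p = 0.0133, limma). The falls in this list were 0 without si-DLX6 library 1, without si-control library 1 or without si-control library 2, and 2 without si-DLX6 library 2, while 1 gene rose each time; with no filter there were 0 of either.

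Genes known as E2F targets at G1/S had the largest share of falls of these lists. Of 30 tested, 20 fell and 0 rose, against 9.49% and 10.2% of all rows (26 and 0 at an unadjusted p under 0.05, 23 and 0 by limma-voom), with a median log2 fold change of −0.62 against 0.05 over all rows. *MCM2*, a subunit of the replicative helicase, was at 51.1 and 52.9 FPKM with si-DLX6 and 99.4 and 99.7 FPKM with si-control (−0.92, adjusted p = 0.00404, limma, Benjamini-Hochberg). *MCM7*, of the same helicase, was at 249.5 and 244 FPKM against 473 and 427 FPKM (−0.86), and *PCNA*, the polymerase clamp, at 70.6 and 68.2 FPKM against 138 and 129 FPKM (−0.94). *UHRF1*, which carries DNA methylation through replication, had the largest fall of the list, 5.64 and 5.96 FPKM with si-DLX6 against 14.9 and 14.2 FPKM with si-control (−1.20). The count of falls was 13 without si-control library 2, 14 to 18 without any other single library, and 5 with no filter on low values. *MYBL2* and *CDT1*, also E2F targets, did not pass, at 0.09 and −0.11. Replication genes were already known to be lower in these libraries when the list was drawn up, so the count is a description and not independent evidence of a direction. Some genes are in more than 1 list, and *CCNA2* is counted among the falls both here and in the CDK2 list.

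**Figure D4:**
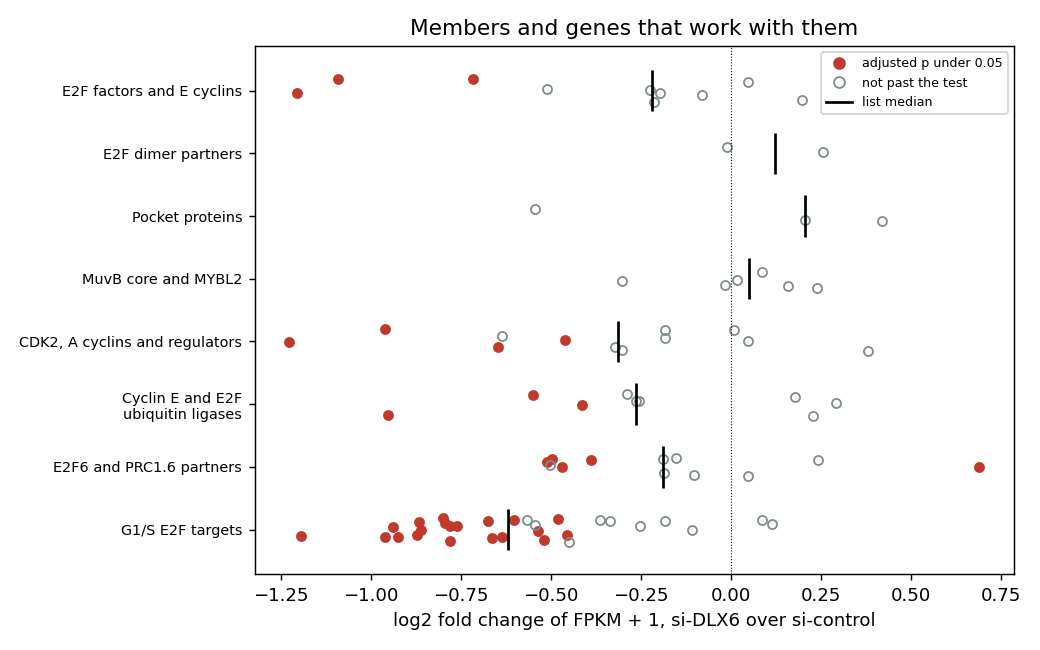
Log2 fold change of FPKM + 1, si-DLX6 over si-control (horizontal axis), of the 10 genes and of the tested genes in 7 lists (rows); filled red points passed at an adjusted p under 0.05 and black bars are list medians. DP partners, pocket proteins and the MuvB list have no filled point, and the G1/S targets have 20, all below 0.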

How the data were processed

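Libraries were made from 1.3 µg of total RNA using the SMARTER mRNA-Seq prep (labels' protocols). The authors deposited 1 table, a column for each library, whose header names no unit. The deposited values were read as FPKM, scaled by the authors to gene length and library total, since they are whole multiples of a step set by each gene. For aligner, counter and strand use, nothing is stated in the labels or header. A mouse build (GRCm38, mm10) stands in the submitters' processing notes although rows carry human symbols, so positions come from GENCODE release 29 (GRCh38) and promoters from RefSeq, by symbol. No value column was left unused.

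Division by these steps gave whole reads in 99.96% of rows above 0 (within 0.01 reads), and library totals came from mitochondrial genes. A factor shared by a gene's length and its reads in every library is lost in this step. Recovered reads are thus lower limits for any gene. Genes held 98.0% to 98.1% of reads. Exact intervals and read ratios cover counting error only.

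The test was limma 3.58.1 with a mean-variance trend (R 4.3.3), on log2(FPKM + 1) with a term for group alone, over 15504 rows with at least 1 FPKM in at least 2 of 4 libraries, with Benjamini-Hochberg adjustment and calls at adjusted p under 0.05; it was tested on simulated data. Fold changes are on that scale, and SE is limma's moderated error. Alternatives were pseudocount, filter, scaling, limma-voom on recovered reads, replicate block and each library left out. Genes named were the 10, *DLX6*, all genes of lists of 3, up to 4 called genes with the smallest p in longer lists, and the 3 nearest profiles to *E2F1* and *CCNE2*. *CDK2*, *CDKN1B*, *CUL1*, *MAX*, *PCGF6*, *MYBL2*, *CDT1*, marker genes, copies and overlapping genes were named outside it, after their values were seen. Members and lists were chosen with earlier results of these data known.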

Additional observations from a re-analysis of the deposited data

How the results depend on the processing

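The calls of *E2F2*, *E2F4* and *E2F8* held in every fit without 1 library, with log2 fold changes of −1.30 to −0.88, −0.75 to −0.68 and −1.32 to −1.09. With no filter on low values, which adds many rows near 0, *E2F2* (−1.09, adjusted p = 0.0792), *E2F8* (−1.21, 0.0560) and *DLX6* (−1.39, 0.0667) were past the threshold no longer (limma). *DLX6* was not testable with a filter of at least 1 FPKM in all 4 libraries. *CCNE1* ranged from −0.72 to −0.31 without 1 library, and with the replicate number as a block it passed (−0.51, adjusted p = 0.0465, limma). *E2F5* (−0.18 to 0.015), *E2F7* (−0.20 to 0.29) and *CCNE2* (−0.43 to 0.0054) changed sign when 1 library was left out, and *E2F7* was at −0.036 under median-of-ratios scaling; the cause was not tested.

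Over all rows 1575 were called higher and 1471 lower, against 1077 and 1814 with median-of-ratios scaling, 167 and 205 with no filter, and 682 to 852 and 683 to 915 without 1 library. The genes of the 7 lists together gave 30 lower and 1 higher, 6 and 0 with no filter, and 15 to 22 lower without 1 library. The replicate block gave 2749 higher and 2370 lower over all rows and 3 higher list genes. Same-numbered libraries deviated together weakly (r = 0.20 across genes), and the labels do not say that a number marks a shared culture or day. With 2 libraries a group, the exact permutation test of a ratio could not go below 0.333. The si-DLX6 values of *E2F2* and *E2F8* rest on 86 to 161 reads.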
